A study of Mus musculus with 4 samples.

Results

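Enzymes that make prostaglandins and leukotrienes were compared between visceral mesothelium of the omentum and parietal mesothelium of the body wall. The list of 10 genes was set by name, with earlier results of these data known. A gene was represented by the array row that the platform annotation pairs with its symbol alone. This found 9 of the 10 genes among 19938 genes measured, each through 1 row, while Ptgs1 is not analysed here. All tissue came from untreated adult Wt1-cre;Rosa26ReYFP mice on a C57BL/6 background. In these mice Cre is made by cells that use the Wt1 gene and switches on a yellow fluorescent reporter. Both tissues share this genotype. RNA of 2 visceral and 2 parietal samples was taken directly from the isolated native tissue and hybridized to 1 Affymetrix Mouse Gene 1.0 ST array each. Biological replicates is the labels' word for them, but which animals gave each sample is not stated, and the p-values reflect only how far these samples differed. Signals are RMA values on the log2 scale, so that a difference of 1 is a 2-fold change. A gene counted as called in limma if its adjusted p was under 0.05 and its fold was 1.5 or more.

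Both prostaglandins and leukotrienes are made from arachidonic acid, which phospholipases A2 cut from membrane lipids. The cyclooxygenases Ptgs1 and Ptgs2 turn it into prostaglandin H2, and terminal synthases convert this into prostaglandin E2 (Ptges), prostaglandin D2 (Ptgds and Hpgds) or prostacyclin (Ptgis). In the leukotriene branch the 5-lipoxygenase Alox5 works with its partner Alox5ap, and Ltc4s joins the product to glutathione to give cysteinyl leukotrienes. Mesothelial cells are known to release prostacyclin and prostaglandin E2, while mast cells and macrophages are known for the leukotriene branch.

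Over all probes of the array, which are not independent replicates, Pearson's r was 0.992 within the visceral pair and 0.993 within the parietal pair of samples, and 0.965 to 0.969 for samples of different tissues. The mesothelial marker Upk3b had 13.59 and 13.65 in visceral mesothelium, against 13.79 and 13.84 in parietal mesothelium, and did not pass the test (adjusted p = 0.196 from limma). Of 13 mesothelial markers, 1 had a called excess in visceral and 7 a called excess in parietal mesothelium. Their median log2 difference, visceral minus parietal, was -0.88. Their summed linear signal was 47800 and 46040 in visceral samples, against 74470 and 70760 in parietal samples. Msln (-2.14) and Krt7 (-1.78) were among the 7, and Wt1 (0.84) was the 1 higher in visceral mesothelium. Over all genes, 9.60% were called, with 5.22% higher in the visceral and 4.39% in the parietal samples.

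Of the 9 synthesis genes, 5 were called higher in visceral mesothelium (Ptges, Hpgds, Alox5, Alox5ap and Ltc4s), against 5.22% of all genes, and none higher in parietal mesothelium. None of the 9 was higher in parietal mesothelium at an unadjusted p under 0.05 from limma either. The methods' t-test stands here for their one-way ANOVA, which for 2 tissues equals a pooled t-test. Without adjustment it called 5 of the 9 in visceral and 0 in parietal mesothelium. After Benjamini-Hochberg adjustment it called 0 of the 9 and 0 of all genes in either direction. The paper reports altered probes after such an adjustment, and the reason for this discrepancy was not tested. The median log2 difference, visceral minus parietal, was 0.98 over the 9 genes and 0.0015 over all 19938 genes. The arrays of the tissues did not overlap for 8 of the 9 genes, against 56.3% of all genes. In tissue samples such as these, fewer cells of a type and less RNA per cell cannot be told apart.

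The promoters of 4 of the 5 genes higher in visceral mesothelium are shown because these genes moved together. They are the 250 bases before the start of the gene, from RefSeq on GRCm38.p6, written 5′ to 3′ on the strand of the gene. Capitals mark matches on either strand to 6 short motifs, the GC box GGGCGG, the PU.1 core GAGGAA, the GATA motif GATAA, the AP-1 motif TGANTCA, the cyclic AMP element TGACGTCA and the C/EBP motif TTGCGCAA. Ptges is at chr2:30903298-30903547, Hpgds at chr6:65144731-65144980, Alox5 at chr6:116461179-116461428 and Ltc4s at chr11:50238533-50238782, all on the minus strand.
Ptges: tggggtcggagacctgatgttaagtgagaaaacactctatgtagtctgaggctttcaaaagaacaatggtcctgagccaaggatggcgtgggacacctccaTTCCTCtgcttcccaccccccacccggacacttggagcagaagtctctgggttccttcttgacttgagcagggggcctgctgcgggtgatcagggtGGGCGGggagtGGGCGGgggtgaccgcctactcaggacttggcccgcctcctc
Hpgds: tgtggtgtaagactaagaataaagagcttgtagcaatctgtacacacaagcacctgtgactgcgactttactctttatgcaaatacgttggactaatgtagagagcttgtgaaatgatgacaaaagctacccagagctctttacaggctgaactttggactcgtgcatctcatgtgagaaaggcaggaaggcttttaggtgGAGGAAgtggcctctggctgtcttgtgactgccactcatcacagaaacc
Alox5: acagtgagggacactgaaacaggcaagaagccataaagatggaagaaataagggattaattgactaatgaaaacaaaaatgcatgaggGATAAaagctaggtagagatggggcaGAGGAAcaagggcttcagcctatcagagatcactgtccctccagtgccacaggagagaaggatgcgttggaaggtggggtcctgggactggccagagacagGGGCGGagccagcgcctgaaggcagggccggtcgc
Ltc4s: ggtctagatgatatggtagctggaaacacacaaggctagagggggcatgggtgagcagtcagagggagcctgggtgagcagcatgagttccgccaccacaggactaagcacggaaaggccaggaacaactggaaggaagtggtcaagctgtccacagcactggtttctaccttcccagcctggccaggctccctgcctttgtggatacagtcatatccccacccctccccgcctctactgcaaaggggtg

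The Ptges promoter held 2 GC boxes, which begin 53 and 42 bases before the start, and Alox5 held 1, which begins 35 bases before it. A GC box was found in 32.7% of 32851 windows of this length. GAGGAA stood in the windows of Ptges, Hpgds and Alox5, against 23.3% of all windows, and GATAA in that of Alox5, against 22.6%. The other motifs, AP-1 in 6.75%, the cyclic AMP element in 1.55% and C/EBP in 0.164% of all windows, had no match in these 4 promoters. None of the 6 motifs stood in the Ltc4s window, and no match overlapped another. Of the 7 listed genes with a promoter window, 5 held GAGGAA, Ptgs1 and Ptgs2 among them, and 3 a GC box. The motifs were chosen after the windows had been read, so the comparison with all windows is not a test. The motif matches are a description of the letters in these windows.

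Cyclooxygenase 2, Ptgs2, is the inducible enzyme at the head of the prostaglandin branch. Its log2 signal was 7.74 and 7.32 in the visceral samples, against 7.04 and 6.57 in the parietal samples. Both visceral samples lay above both parietal samples, yet the samples of each tissue were spread widely. The difference of 0.72 (standard error 0.20) did not pass the test, with an adjusted p of 0.0789 from limma. Without parietal replicate 1 it was 0.96 and passed (adjusted p = 0.0147), and without parietal replicate 2 it was 0.49 (adjusted p = 0.191). Its signal lay below the median of all genes.

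Among the terminal prostanoid synthases, Ptges had the largest difference of the 9 genes. Ptges, the inducible microsomal prostaglandin E synthase, had 10.53 and 10.48 in the visceral samples, against 8.30 and 8.02 in the parietal samples. The visceral samples differed little from each other and stood well above the parietal ones. This was a log2 difference of 2.35 (standard error 0.11), or 5.08-fold higher expression in visceral mesothelium, with an adjusted p of 2.19e-04 from limma. By size of the difference it was the 96th of all genes higher in visceral mesothelium.

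The prostaglandin D2 synthases did not move alike. Hpgds, the hematopoietic enzyme known from mast cells, had 6.97 and 6.63 in visceral samples, against 5.91 and 5.73 in parietal samples. All visceral values were above all parietal ones, with a difference of 0.98 (standard error 0.14) or 1.98-fold (adjusted p = 0.00794 from limma). Its signal was dim, at or below the 25th percentile of all genes. In a test against a fold of 1.5 it no longer passed (adjusted p = 0.283 from limma). Ptgds, the lipocalin-type synthase, had 8.54 and 8.42 in visceral samples, against 8.57 and 8.40 in parietal samples. These samples overlapped completely, and the 95% interval of the difference ran from -0.25 to 0.24.

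Ptgis, the prostacyclin synthase, differed little between the tissues. Its signal was 12.17 and 12.32 in visceral samples, against 12.16 and 12.10 in parietal samples. The visceral samples were the higher ones by a margin within the spread of a tissue, and the difference of 0.12 had a 95% interval from -0.11 to 0.34 (adjusted p = 0.490 from limma).

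**Figure D1:**
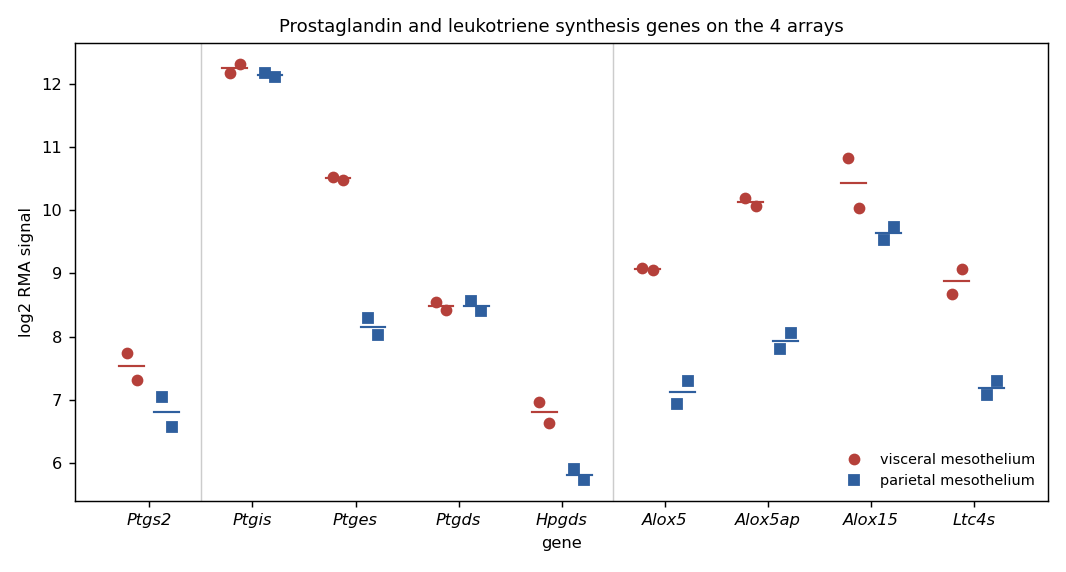
Log2 RMA signal (y axis) of the 9 measured synthesis genes (x axis), with visceral mesothelium as red circles and parietal mesothelium as blue squares; each point is 1 array and each bar the mean of 2. The groups from left to right are cyclooxygenase, terminal prostanoid synthases and lipoxygenase branch; Ptges lies at 10.53 and 10.48 in visceral and at 8.30 and 8.02 in parietal mesothelium, whereas the samples overlap for Ptgds.

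Of the 4 lipoxygenase and leukotriene synthesis genes, 3 were called higher in visceral mesothelium, against 5.22% of all genes. Alox5, the 5-lipoxygenase that forms leukotriene A4, had 9.08 and 9.05 in visceral samples, against 6.93 and 7.30 in parietal samples. The visceral pair was nearly identical and the gap to parietal mesothelium exceeded the spread of either tissue. The log2 difference was 1.95 (standard error 0.14), or 3.85-fold (adjusted p = 6.73e-04 from limma).

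Alox5ap, the membrane protein that presents arachidonic acid to Alox5, had 10.19 and 10.07 in visceral samples, against 7.81 and 8.05 in parietal samples. Again no sample of one tissue came near the other. The difference was 2.20 (standard error 0.11), or 4.59-fold (adjusted p = 2.63e-04 from limma).

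Ltc4s, the leukotriene C4 synthase, had 8.68 and 9.07 in visceral samples, against 7.08 and 7.30 in parietal samples. The tissues were again separate, with every visceral sample above every parietal one. The difference was 1.69 (standard error 0.15), or 3.22-fold (adjusted p = 0.00172 from limma). Ptges, Alox5ap and Ltc4s, 3 of the 5 called genes, belong to the same family of small membrane proteins of eicosanoid and glutathione metabolism, called MAPEG. The family as a whole did not move alike. Its members Mgst1 (-0.72) and Mgst3 (-0.63) were called higher in parietal mesothelium, and Mgst2 (-0.33) was not called. The calls of Mgst1 and Mgst3 did not hold with some single arrays left out.

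Alox15, the mouse 12/15-lipoxygenase known from resident peritoneal macrophages, was the exception among the lipoxygenase and leukotriene synthesis genes. It had 10.82 and 10.03 in visceral samples, against 9.53 and 9.74 in parietal samples. The visceral samples lay above the parietal ones but differed from each other by as much as the tissue means did. The difference of 0.79 (standard error 0.26) did not pass (adjusted p = 0.111 from limma). Without visceral replicate 2 it was 1.18 and passed (adjusted p = 0.0106), and without visceral replicate 1 it was 0.39 (adjusted p = 0.154).

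**Figure D2:**
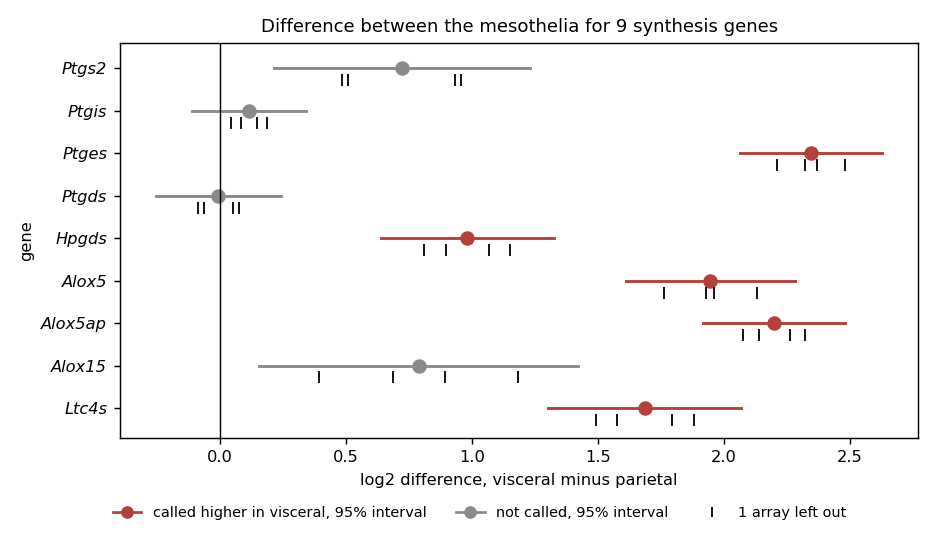
Differences on the log2 scale (x axis, visceral minus parietal) for the 9 synthesis genes (y axis), with the 95% interval from limma as a line and the 4 values obtained on leaving out each array as ticks. The 5 called genes are red and lie between 0.98 for Hpgds and 2.35 for Ptges, and the ticks of Ptgds fall on both sides of 0.

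The other genes of the pathway held calls in both directions. Of 69 measured genes that release, convert, carry, sense or break down these lipids, 17 were called higher in visceral mesothelium, 4 were called higher in parietal mesothelium, and 48 were not called. Over all genes these shares were 5.22% for visceral and 4.39% for parietal mesothelium. The median difference of the 69 genes was 0.07. The 4 higher in parietal mesothelium became 2 without visceral replicate 1 or parietal replicate 2, 1 without visceral replicate 2, and 5 without parietal replicate 1.

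Upstream of the synthesis genes, visceral mesothelium had more of 4 of the 17 phospholipases A2 and parietal mesothelium more of 1. The secreted enzyme Pla2g5 was higher in visceral mesothelium by 1.44, Pla2g7, which inactivates platelet-activating factor, by 1.22 and the cytosolic Pla2g4c by 0.89. Pla2g4e, another cytosolic form, was higher in parietal mesothelium (-0.90), but did not pass without visceral replicate 2 (-0.83, adjusted p = 0.0553 from limma). Among 8 further prostanoid synthases, Tbxas1, the thromboxane A synthase, had 8.57 and 8.47 in visceral samples, against 6.99 and 7.10 in parietal samples, a difference of 1.47 (adjusted p = 4.50e-04 from limma). The carbonyl reductase Cbr2 was higher in visceral mesothelium by 2.71, and the other 6 did not pass.

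Several enzymes are known to act downstream of Ltc4s, among them Ggt1, which is not analysed here. Ggt5, which cuts leukotriene C4 to leukotriene D4, was higher in visceral mesothelium by 0.79, and the dipeptidases Dpep1 and Dpep2, which can make leukotriene E4, by 1.33 and 0.92. Dpep1 did not pass in the fit over all probes (adjusted p = 0.0521 from limma). These genes were the 3 of 12 other lipoxygenase and leukotriene genes called higher in visceral mesothelium, against 5.22% of all genes. On the same list 2 were called higher in parietal mesothelium, against 4.39% of all genes. Among them was the microsomal glutathione transferase Mgst3 (-0.63). In the fit over all probes Mgst3 did not pass either (adjusted p = 0.0593 from limma). Mgst3 did not pass without visceral replicate 1 (-0.69, adjusted p = 0.0570), visceral replicate 2 (-0.58, adjusted p = 0.0930) or parietal replicate 2 (-0.499, adjusted p = 0.0627 from limma).

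Transport and breakdown genes split between the tissues. Slco2a1, the prostaglandin transporter that takes prostaglandins into cells, had 9.40 and 9.55 in visceral samples, against 10.89 and 11.00 in parietal samples. In contrast to Ptges it was higher in parietal mesothelium, by a difference of -1.47 with a standard error of 0.10 (adjusted p = 5.82e-04 from limma). Of the other 9 genes, Abcc1, an exporter of leukotriene C4, was higher in visceral mesothelium by 0.62 and the reductase Ptgr1 by 0.60, both close to the fold threshold. Without visceral replicate 2 neither passed (0.54, adjusted p = 0.0507 for Abcc1 and 0.57, adjusted p = 0.0635 for Ptgr1). Abcc1 was also under the fold threshold without parietal replicate 1 (0.57, adjusted p = 0.0392), and Ptgr1 did not pass without parietal replicate 2 (0.51, adjusted p = 0.0534 from limma).

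Among listed receptors and regulators, 2 of 10 for prostanoids and 1 of 5 for leukotrienes and lipoxins were called higher in visceral mesothelium. None was called higher in parietal mesothelium, and over all genes the shares were 5.22% and 4.39%. Ptger4, a prostaglandin E2 receptor, had 8.15 and 8.35 in visceral samples, against 6.96 and 7.18 in parietal samples, a difference of 1.18 (adjusted p = 0.00234 from limma). The thromboxane receptor Tbxa2r was higher by 1.04 and the cysteinyl leukotriene receptor Cysltr1 by 0.87. Of 7 cytochrome P450 epoxygenases and epoxide hydrolases, 3 were higher in visceral mesothelium. They were the soluble epoxide hydrolase Ephx2 (1.07), the microsomal Ephx1 (0.88) and Cyp2j9 (0.97). In the fit over all probes Ephx1 (adjusted p = 0.0536) and Cyp2j9 (adjusted p = 0.106 from limma) did not pass. Without visceral replicate 2 Ephx1 (0.76, adjusted p = 0.0768) and Cyp2j9 (0.64, adjusted p = 0.0636) did not pass, and neither did Cyp2j9 without parietal replicate 1 (0.85, adjusted p = 0.0741 from limma).

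**Figure D3:**
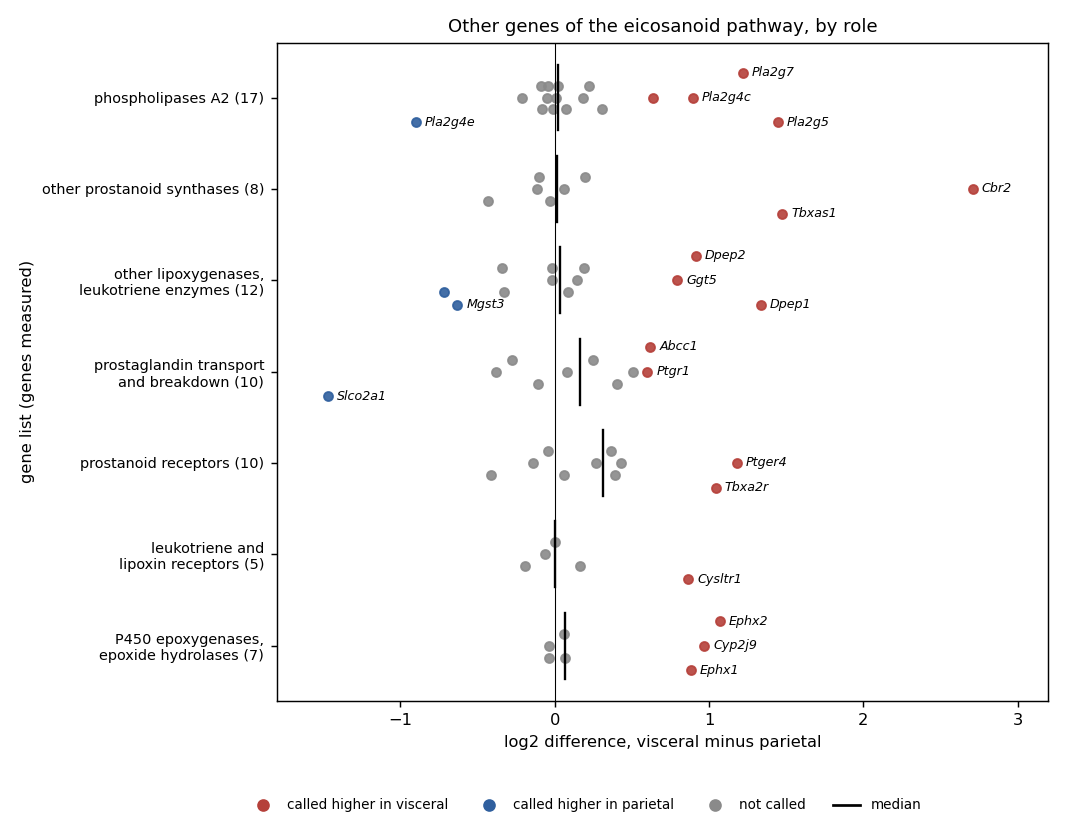
Differences on the log2 scale (x axis, visceral minus parietal) for 69 other eicosanoid pathway genes in 7 groups by role (y axis, number measured in parentheses); each point is 1 gene, the black bar is the group median and the named genes are labelled. Cbr2 lies farthest to the right at 2.71 and Slco2a1 farthest to the left at -1.47.

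Markers of leukocytes differed between the same samples. Of 15 macrophage markers, 12 were called with more signal in visceral mesothelium and none with less, with a median difference of 1.63. Their summed linear signal was 24300 and 25790 in visceral samples, against 6951 and 7806 in parietal samples. The receptor Mrc1 and the complement chain C1qc had differences of 2.69 and 2.94. Of 12 mast cell markers, 10 were called with more signal in visceral mesothelium and none with less, with a median of 1.64 and a summed linear signal of 9797 and 7612 in visceral samples, against 1226 and 1350 in parietal samples. The proteases Cpa3 and Tpsb2 had differences of 4.63 and 2.56, and Ms4a2, a chain of the IgE receptor named after its values were seen, had -0.38 and was not called (adjusted p = 0.107 from limma). For Alox5, Alox5ap, Hpgds and Ltc4s, which these cells are known to make, the part of such markers in the result was not tested, nor was it for Ptges.

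Other lists were set beside the synthesis genes. Of 8 markers of large peritoneal macrophages, a cell known for Alox15, 3 were higher in visceral mesothelium with a median of 0.33, and their summed linear signal was 7286 and 6790 in visceral samples, against 4925 and 5208 in parietal samples. Timd4 and Vsig4 on this list had differences of 1.74 and 2.68. Prg4 and F10 went the other way (-0.39 and -0.07) and were not called. Gata6, which had the highest signal on the list and so weighs most in the sum, was not called either (0.20, adjusted p = 0.205 from limma). Of 12 granulocyte and eosinophil markers, only 1 was called higher in visceral mesothelium, and of 8 B cell markers, 4. The shares over all genes were 5.22% for visceral and 4.39% for parietal mesothelium. Of 11 smooth muscle and pericyte markers, visceral mesothelium had more of 5 and parietal mesothelium more of 2. All 12 skeletal muscle markers were higher in parietal mesothelium, by a median of -5.63, with a summed linear signal of 1592 and 1617 in visceral samples, against 69360 and 87320 in parietal samples. Their part in the differences of the synthesis genes was not tested.

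**Figure D4:**
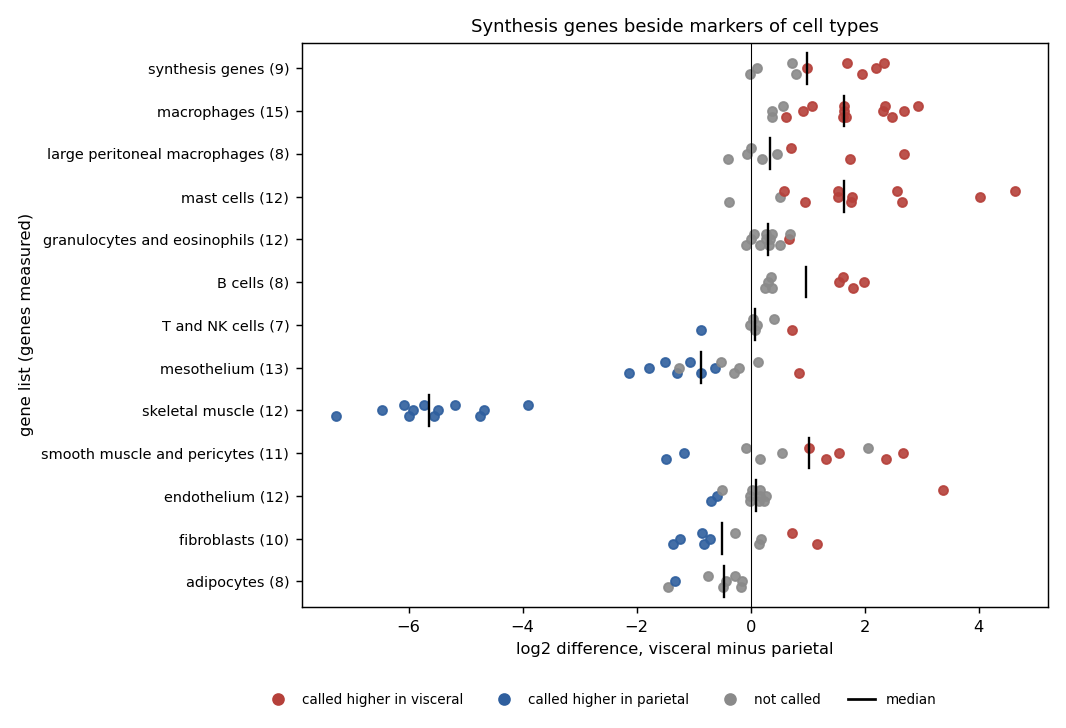
Differences on the log2 scale (x axis, visceral minus parietal) for the 9 synthesis genes in the top row and for 12 lists of cell type markers below it (y axis, number measured in parentheses); each point is 1 gene and the black bar is the median of the list. The median is 0.98 for the synthesis genes, 1.63 for macrophages, 1.64 for mast cells and -5.63 for skeletal muscle.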

How the data were processed

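RNA from 2 visceral and 2 parietal mesothelium samples was hybridized to Affymetrix Mouse Gene 1.0 ST arrays. The deposited log2 values are RMA values that the authors computed in Partek Genomics Suite, given as version 6.6 in the submitters' notes. The array library version is not given in the sources used here. RMA equalizes the distributions of the arrays, so a difference is relative to the other genes. No further normalization was applied. Gene names came from a platform annotation, with symbols checked against a RefSeq table of GRCm38.p6, which held 21698 of the 21789 probes with 1 symbol and changed 0 of them. Of 35556 probes, 1621 had several symbols and 12146 none and were not used. For each gene the probe with the highest mean was taken.

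For the comparison, limma 3.58.1 was run in R 4.3.3 over 19938 genes, with all 4 arrays and no block, and p-values were adjusted over all genes by Benjamini-Hochberg. The code was tested on simulated data. The number of arrays limits the precision. The members and lists were chosen with earlier results of these data known, and the promoter motifs after the windows had been read. Named are all measured members, up to 4 called genes per pathway role and up to 2 markers per list, each by lowest adjusted p. Upk3b, Wt1, Mgst1, Mgst2, Gata6, Prg4 and F10 were named beyond this rule after their values were seen. The alternatives were the methods' t-test, other variance priors, thresholds, normalizations, dim-gene filters and probe rules, omission of each array in turn and a replicate block. Scan batches were not analysed here.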

Additional observations from a re-analysis of the deposited data

How the results depend on the processing

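Over 20 alternatives for each synthesis gene, fewer where a filter removed it, 165 values kept their direction and their side of the threshold, 7 lost and 3 gained the call, and 2 changed sign. Both were of Ptgds, whose difference of -0.0058 was 0.053 without visceral replicate 2 and 0.077 without parietal replicate 1, and ranged from -0.089 to 0.077 on leaving out each array. Several alternatives change only the test or the threshold and keep the same difference, so its sign could not change there. A gene without a call could also not lose one under a stricter rule. With the methods' t-test after adjustment, 0 synthesis genes, 0 pathway genes and 0 of all genes were called. Unadjusted it called 5 synthesis genes higher in visceral mesothelium, 14 and 3 pathway genes higher in visceral and parietal mesothelium, and 876 and 706 of all genes. Tested against a fold of 1.5, limma called 4 synthesis genes, 5 and 1 pathway genes higher in visceral and parietal mesothelium, and 393 and 331 of all genes, against 17 and 4 and 1040 and 875. At an adjusted p under 0.01 the pathway counts were 11 and 2. At a fold of at least 2 they were 8 and 1, with 521 and 457 of all genes, and without a fold limit 1574 genes were higher in visceral mesothelium. Among genes above the median signal 9 pathway genes were higher in visceral mesothelium, and over all probes 2 were higher in parietal mesothelium. Fewer genes were tested with the first of these, and more rows with the second. On leaving out each array, with the lone array of a tissue assumed to vary like the other tissue, 5 to 6 synthesis genes and 13 to 17 pathway genes were higher in visceral and 1 to 5 pathway genes in parietal mesothelium. Otherwise the cause of these changes was not tested.

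The tissues share replicate numbers, but the labels do not say that a number marks the same animal. The deviations of same-numbered arrays from their tissue means correlated at 0.36 over genes. With the replicate number as a block, 6 synthesis genes were called, Ptgs2 among them (adjusted p = 0.00477 from limma), 17 and 4 pathway genes, and 1087 and 921 of all genes. It changed no other call of the genes named here from the synthesis and pathway lists.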

Other observations

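In the RefSeq table of GRCm38.p6, the protein-coding gene next to Ptgs2 on chromosome 1 is Pla2g4a, the cytosolic phospholipase A2 that releases arachidonic acid. Pla2g4a had 9.71 and 9.91 in visceral samples, against 9.67 and 9.59 in parietal samples, a log2 difference of 0.18 that did not pass (adjusted p = 0.321 from limma). Next to Alox15 on chromosome 11 lies the epidermal lipoxygenase Alox12e, with 7.44 and 7.36 in visceral samples, against 7.27 and 7.14 in parietal samples (0.19, adjusted p = 0.246 from limma). Both neighbours were named after their values were seen.

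Further pathway genes with central roles did not pass. Hpgd, which inactivates prostaglandins, had 9.95 and 10.17 in visceral samples, against 10.12 and 10.76 in parietal samples (-0.38, adjusted p = 0.329 from limma). Lta4h, which makes leukotriene B4, had 8.95 and 8.86 in visceral samples, against 8.83 and 8.68 in parietal samples (0.15, adjusted p = 0.399 from limma). These too were picked after their values were seen.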
